A study of Mus musculus with 18 samples.

Results

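E-Wnt and M-Wnt, 2 mouse mammary tumour cell lines, were compared after 72 h in RPMI 1640 medium with 0 µM folic acid and dialyzed serum. The members of the comparison were the 6 arrays labelled as folic acid withdrawal of E-Wnt (replicates 1 to 3) or M-Wnt (replicates 1 to 3), of 18 arrays in the series. The other 12 arrays held E-Wnt and M-Wnt kept for the same 72 h in the standard form of that medium (2.2 µM folic acid, ordinary fetal bovine serum), and metM-Wnt, another line, in both media. Dialysis of the serum accompanied the removal of folic acid in every withdrawal sample, so the effect of either cannot be told apart from that of the other. Each array set Cy5-labelled sample RNA (red) against Cy3-labelled RNA of NIH3T3 cells (green), a mouse fibroblast line used as common reference, with no dye swap. Each group was 1 cell line in 3 replicates, which the design text calls biological. The labels do not say whether they were separate cultures, so the p-values measure only the spread between arrays of a group. That spread was pooled over all 6 groups of the series. The median standard deviation of a feature was 0.229 in E-Wnt and 0.122 in M-Wnt without folic acid. A pooled standard error (SE) need not match the spread of the groups compared.

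E-Wnt and M-Wnt are known as epithelial and mesenchymal tumour lines derived from mammary tumours of Wnt-1 transgenic mice. In epithelial cells ezrin and related proteins tie the actin cortex to the plasma membrane, while mesenchymal cells lose apical surfaces and gain motility. Folic acid supplies the one-carbon units that cells use to make thymidylate, purines and methionine, and dialysis removes small molecules such as folates from serum. None of the 15 epithelial, 15 mesenchymal, 8 immune, 5 endothelial or 5 hepatocyte marker genes listed for the purpose could be matched by name to a probe, so the labelled cell types were not checked against markers. In bulk RNA, fewer cells of a type and less RNA per cell cannot be told apart.

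Of 80520 non-control probes, 39586 were well above background in red on all 3 arrays of M-Wnt (35964 probes) or of E-Wnt (37559 probes), and 33937 were so in both. Averaging probes of one named gene gave 39578 features for the test. Only 72 of these features (80 probes) carried a gene name, because just the probes whose identifiers hold a transcript accession could be matched to RefSeq. The remaining features are given by probe identifier. The named genes are therefore those that a noncoding-RNA probe set happened to touch. Whether such a probe reads the coding transcript or its opposite strand was not checked, which limits every gene named here.

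Mean red signal was 4129 to 5604 on the 3 E-Wnt arrays and 1964 to 3722 on the 3 M-Wnt arrays. M-Wnt replicate 3 was the dimmest at 1964. E-Wnt replicate 3 stood apart: 2752 features lay more than 2-fold from the mean of the other E-Wnt arrays, against 1021 and 701 for E-Wnt replicates 1 and 2 and 11 to 218 for the M-Wnt arrays. The 3 M-Wnt arrays shared slide 3, whereas E-Wnt replicate 1 was on slide 1 and replicates 2 and 3 were on slide 2. No slide held both groups, so there is no value within a slide.

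M-Wnt and E-Wnt differed widely without folic acid. With limma and Benjamini-Hochberg adjustment, 18154 of 39578 features (45.9%) passed an adjusted p of 0.05, 9440 of them higher (23.9%) and 8714 lower (22%) in M-Wnt. Of those called, 3881 were at least 2-fold higher (9.81%) and 2836 at least 2-fold lower (7.17%). At a log2 difference of 4 or more, 296 were higher and 164 lower, and at 7 or more, 21 were higher and 4 lower. The median log2 difference of all features was 0.04. Without E-Wnt replicate 3, 20240 features passed.

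The balance of directions depended on how the arrays were scaled. Higher features made up 52% of the calls with loess, 43.7% with the scanner's processed signals and 43.9% with the red channel alone. They made up 19.2% when the log ratios were centred on their median without loess, a scaling that put the median of all features at -0.37. The number of calls fell to 8370 when slide was a fixed block, a fit in which the line difference rests on the arrays of the other groups that share the slides. The plot of calls under each processing shows both effects.

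**Figure D1:**
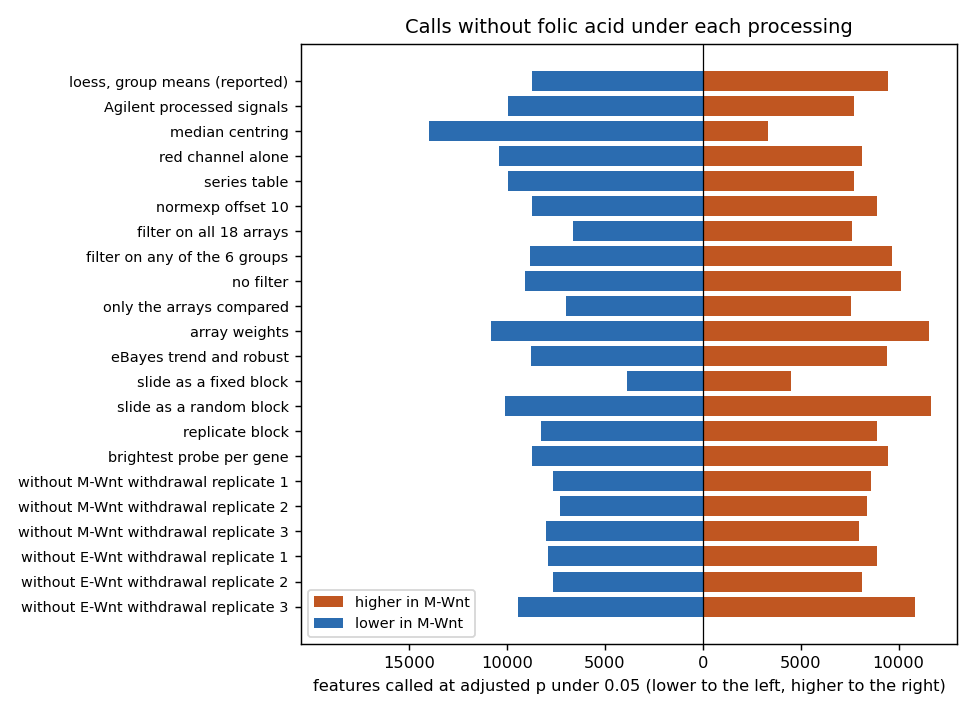
Features called at an adjusted p of 0.05 between M-Wnt and E-Wnt without folic acid under each processing. Bars to the right count features higher in M-Wnt and bars to the left features lower in M-Wnt. The reported processing gave 9440 and 8714. Median centring turned the balance towards lower features (19.2% higher), and the fixed slide block left 8370 calls.

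Among the 72 named genes, 30 passed the test (41.7%, beside 45.9% of all features), 16 higher and 14 lower in M-Wnt. The median log2 difference of the 72 was -0.06, beside 0.04 over all features. For 38 of the 72 the 3 arrays of either group lay wholly beyond those of the other, beside 52.4% of all features. The share of named genes called was near that of the array as a whole. With slide as a fixed block 12 named genes passed, 6 in each direction: U90926, Hspb1, BC065403, Selenoh, Ssbp2, 2810021J22Rik, Tbc1d16, Ezr, Pate14, Gm904, Rpl18 and Txndc9. Median centring ended the calls of Selenoh, Ssbp2, Rnf125, Pdlim5, Ass1, Rpl39l, Sec22b, Mrpl51, 2810021J22Rik, Srsf10, Vmn1r74, Wfdc18 and Defa24, which left 17 of the 30. The red channel alone ended those of Mrpl51, BC051226, Rpl39l, Vmn1r74, Wfdc18 and Defa24.

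**Figure D2:**
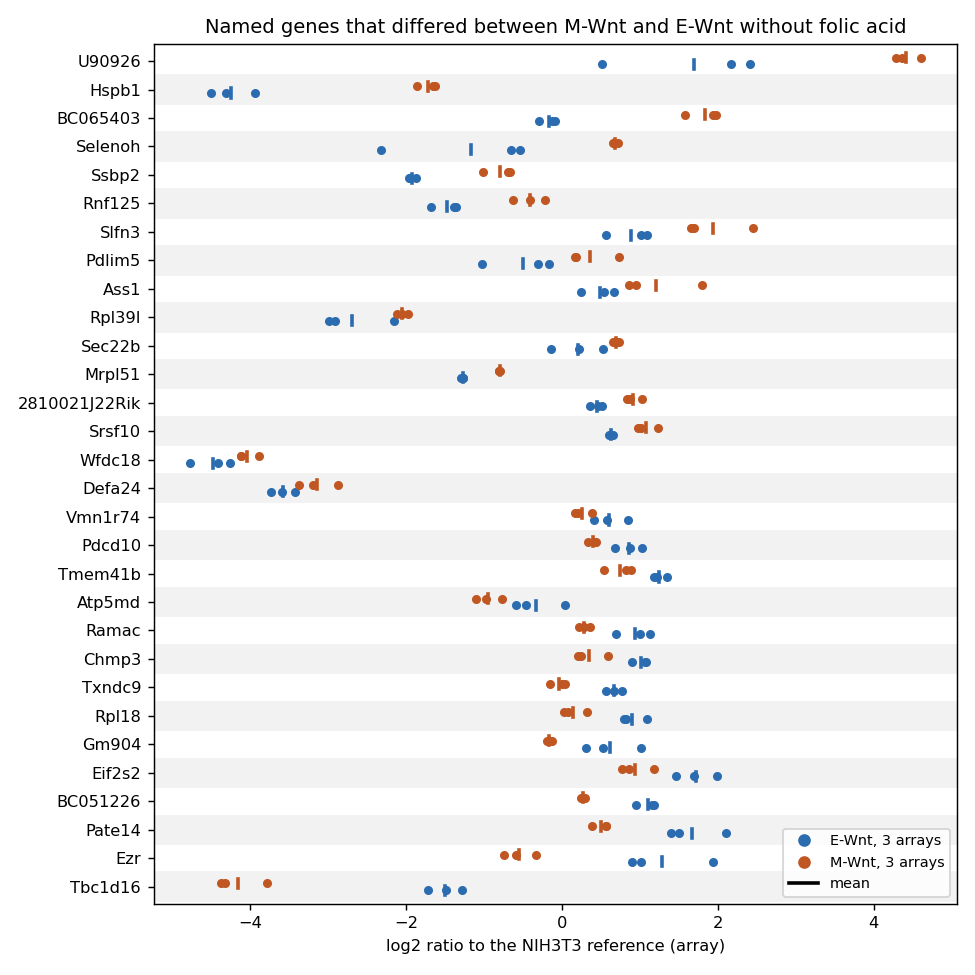
Log2 ratio to the NIH3T3 reference on each array for the 30 named genes that passed the test between M-Wnt and E-Wnt without folic acid. Points are arrays, 3 per line, and vertical ticks are means. Hspb1 and U90926 stand at the end where M-Wnt was higher, and Tbc1d16 and Ezr at the end where M-Wnt was lower. E-Wnt replicate 3 lies far from the other E-Wnt arrays for U90926 and Selenoh.

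Of 6 measured members of the list of chaperones and folding helpers, Hspb1 rose and Txndc9 fell in M-Wnt relative to E-Wnt, and 4 did not pass. This is 2 of 6 called, beside 45.9% of all features. Hspb1 encodes a small heat shock protein, a chaperone that holds denatured proteins in solution and binds actin. Its log2 ratio to the reference was -3.93, -4.50 and -4.30 on the E-Wnt arrays and -1.66, -1.63 and -1.86 on the M-Wnt arrays. All 3 M-Wnt arrays were above all 3 E-Wnt arrays. The log2 difference of Hspb1 was 2.53 ± 0.18 (SE, n = 3 per group), 5.78-fold, with a limma adjusted p of 4.4e-09.

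Txndc9, a thioredoxin-like cofactor of the cytosolic chaperonin, was at 0.57, 0.67 and 0.77 in E-Wnt and at 0.00, 0.04 and -0.15 in M-Wnt. The groups did not overlap, and the log2 difference was -0.70 ± 0.10 (SE; limma adjusted p = 2.4e-05). The 4 members that did not pass were Hspd1, the mitochondrial chaperonin (-0.04), Ppid, a peptidyl-prolyl isomerase (-0.01), Pfdn1, a prefoldin subunit (-0.11), and Dnajb9, an endoplasmic reticulum cochaperone (-0.24). The median log2 difference of the 6 was -0.07.

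The promoter of Hspb1 is shown because Hspb1 combined a large line difference with a difference between media, and because heat shock genes are known to carry heat shock elements, the binding sites of heat shock factors. RefSeq places it at chr5:135887669-135887968 (GRCm38.p6, plus strand), from 250 bases before to 50 bases after the gene's start. Capitals mark matches to GAANNTTC, a core of the heat shock element that is its own reverse complement, so that both strands were searched at once.
Hspb1: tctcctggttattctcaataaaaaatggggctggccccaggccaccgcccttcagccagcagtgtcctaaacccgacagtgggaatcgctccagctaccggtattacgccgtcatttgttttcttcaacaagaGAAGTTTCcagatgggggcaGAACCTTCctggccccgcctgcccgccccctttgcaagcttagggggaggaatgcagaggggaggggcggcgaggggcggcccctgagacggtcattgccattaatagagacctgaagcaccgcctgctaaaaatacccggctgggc
The 2 matches begin 117 and 97 bases before the start. At least 1 match was found in 2582 of 32851 RefSeq promoters of this length (7.86%), and 2 or more in 113 (0.344%). Of 62 named genes with a promoter entry, 8 held a match: Csn1s1, Fam24b, Gcsh, Hspb1, Hspd1, Rbbp5, Slx4ip and Vmn1r74. A match is a description of the letters and not of binding.

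All 4 measured genes of the list for membrane traffic, autophagy and the cell cortex were called lower in M-Wnt, beside 22% of all features. Their median log2 difference was -1.17, beside 0.04 over all features. Ezr entered the test only through its E-Wnt arrays. The filter thus favoured a lower value, and Ezr adds no weight to this count or median. The list was chosen with earlier results of these data known, so this count is a description and no test. Measured traffic genes outside it went both ways: Chmp3 was called lower and Sec22b higher. Rab5b did not pass (-0.36, limma adjusted p = 0.087). Tbc1d16 encodes a GTPase-activating protein for Rab proteins, the switches of vesicle transport. It was at -1.71, -1.49 and -1.28 in E-Wnt and at -4.37, -4.32 and -3.78 in M-Wnt. Every M-Wnt array was below every E-Wnt array. The difference of Tbc1d16 was -2.66 ± 0.16 on the log2 scale (SE; limma adjusted p = 5.6e-10), a 6.33-fold lower ratio in M-Wnt.

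Ezr encodes ezrin, the linker of actin to the plasma membrane. Its probe was well above background on all 3 E-Wnt arrays (log2 ratio 0.90, 1.93 and 1.02) and on none of the 3 M-Wnt arrays (-0.59, -0.74 and -0.33). The fitted log2 difference of the ratios was -1.83 ± 0.28 (SE; limma adjusted p = 4.2e-05), which is 3.56-fold. Because Ezr passed the filter through E-Wnt only, its direction was favoured by that choice and the p is no support for it. By a bound on the scale of the red channel alone, normalized between arrays, Ezr was 4.14-fold lower in M-Wnt. Such a red-channel bound sets the mean of the brighter group against the lowest signal that counted as well above background, or the probe's own where higher. For Ezr it was the probe's own (mean log2 red signal 7.15 in M-Wnt and 9.20 in E-Wnt), so the value is a difference of means. A red-channel bound holds on that scale only, is no bound on the fitted ratio, and may carry dye bias without a dye swap.

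Tmem41b, a membrane protein of the endoplasmic reticulum needed for autophagosome formation, was at 1.19, 1.35 and 1.22 in E-Wnt and at 0.89, 0.82 and 0.54 in M-Wnt. The groups of 3 did not overlap, and the log2 difference was -0.50 ± 0.17 (SE; limma adjusted p = 0.021). Pdcd10, an adaptor of protein kinases at the Golgi, differed by -0.46 (adjusted p = 0.024). Both Tmem41b and Pdcd10 lost the call without M-Wnt replicate 3 and without E-Wnt replicate 2. Outside the list, Chmp3, a subunit of the ESCRT-III membrane scission complex, was lower by -0.67 (adjusted p = 0.0093). Sec22b, a vesicle fusion protein between endoplasmic reticulum and Golgi, was higher by 0.49 (adjusted p = 0.019) but was at -0.21 with median centring, and its call was lost without M-Wnt replicate 3 and without E-Wnt replicate 3.

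Of 5 measured genes for transcription, splicing and DNA binding, 3 rose in M-Wnt and none fell, with a median log2 difference of 0.44. Of all features 23.9% were called higher and 22% lower, so that 3 of 5 called stands beside 45.9%. The list was chosen with earlier results of these data known, so this count is a description and no test. Measured genes of such roles outside it that did not pass included Chd3 (0.27), Ddx18 (0.11), Snrpc (-0.05), Cir1 (-0.06), Zfp950 (-0.13), Pcbp2 (-0.20) and Rbbp5 (-0.31). Roles outside the lists were not assigned by a fixed rule, so others of such roles may have passed. One of the 3, Srsf10, changed sign with median centring. Ssbp2 is a single-stranded DNA-binding protein of transcription complexes. It was at -1.96, -1.95 and -1.87 in E-Wnt and at -0.67, -0.69 and -1.01 in M-Wnt, with no overlap. The log2 difference of Ssbp2 was 1.14 ± 0.11 (SE; limma adjusted p = 4.1e-07).

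Slfn3, a member of the Schlafen family of growth regulators, was higher by 1.05 ± 0.21 (SE; limma adjusted p = 0.00048). Its highest M-Wnt value came from replicate 3 (2.46, against 1.66 and 1.70), and all 3 exceeded the E-Wnt values of 0.56 to 1.09. Srsf10, a splicing factor of the SR family, was at 0.64, 0.60 and 0.66 in E-Wnt and at 1.01, 0.98 and 1.23 in M-Wnt. Its log2 difference was 0.44 ± 0.12 (SE; limma adjusted p = 0.0075), but -0.27 (adjusted p = 0.40) with median centring. Supt4a, a transcription elongation factor (-0.09), and Twistnb, a subunit of RNA polymerase I (-0.30), did not pass.

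Of 5 measured genes of metabolism and redox balance, 2 were called, beside 45.9% of all features. Selenoh, a nuclear selenoprotein of redox defence, rose and Atp5md, a small membrane subunit of ATP synthase, fell. Selenoh was at -0.65, -0.54 and -2.31 in E-Wnt and at 0.67, 0.72 and 0.65 in M-Wnt. The E-Wnt value of -2.31 was that of replicate 3, and the 3 M-Wnt arrays lay close together above all E-Wnt arrays. The log2 difference of Selenoh was 1.85 ± 0.31 (SE; limma adjusted p = 0.00011), and 1.28 (adjusted p = 4.5e-07) without E-Wnt replicate 3. Atp5md was lower by -0.61 (adjusted p = 0.0031).

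The remaining 3 metabolic genes did not pass: Acaca, acetyl-CoA carboxylase of fatty acid synthesis (0.04), Akr1b10, an aldo-keto reductase (-0.17), and Macrod2, which removes ADP-ribose from proteins (0.31). The only folate or one-carbon gene of 32 listed that was measured was Gcsh, the lipoate-bearing H protein of the glycine cleavage system, and it did not pass (0.31, adjusted p = 0.29). Outside these lists Ass1, the argininosuccinate synthase of arginine synthesis, was at 0.54, 0.68 and 0.24 in E-Wnt and at 0.86, 0.95 and 1.80 in M-Wnt. The log2 difference of Ass1 was 0.72 ± 0.24 (SE; limma adjusted p = 0.024), and the call was lost without M-Wnt replicate 3, the highest, and without E-Wnt replicate 3, the lowest.

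Called genes with a role in translation are given next, and were put together after their calls were known. Rpl18, a protein of the large ribosomal subunit, was lower by -0.76 (limma adjusted p = 0.00061), and Eif2s2, a subunit of the initiation factor that brings the first tRNA to the ribosome, by -0.78 (adjusted p = 0.0031). Mrpl51, of the mitochondrial large subunit, was higher by 0.47 (adjusted p = 0.00022), with values of -1.29 to -1.26 in E-Wnt and -0.81 to -0.79 in M-Wnt, but at -0.23 with median centring. Rpl39l, a paralogue of a large-subunit protein, was higher by 0.64 (adjusted p = 0.025), a call that 11 of 21 alternatives lost, among them the fits without M-Wnt replicate 2 or 3 and without E-Wnt replicate 1 or 2. The interaction of Rpl39l with the medium, 0.92, did not pass (adjusted p = 0.092), but without E-Wnt withdrawal replicate 3 it was 1.19 (adjusted p = 0.010). Ramac, which activates the methyltransferase of the mRNA cap, was lower by -0.65 (adjusted p = 0.013), a call lost without E-Wnt replicate 1. Rps23rg1, a retrogene of a small-subunit protein and the only measured member of the ribosomal list, did not pass (-0.27).

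RefSeq annotates 4 of the 72 named genes as long noncoding RNAs and 68 as protein coding, a tally made after the values were seen. Of the 4, 3 were called, 2 higher and 1 lower, beside 27 of the 68 protein-coding genes and 45.9% of all features. U90926 was at 2.41, 2.17 and 0.52 in E-Wnt and at 4.29, 4.37 and 4.61 in M-Wnt. E-Wnt replicate 3 was again the low array. The log2 difference of U90926 was 2.72 ± 0.38 (SE; limma adjusted p = 1.6e-05). The groups did not overlap and its 2 probes had the same sign, both of which the choice of named genes required. With the red channel alone the difference was 5.12. Without E-Wnt replicate 3 the difference was 2.13 (adjusted p = 6e-06). In a fit of only the arrays compared the limma adjusted p of U90926 was 0.003. BC065403, also read by 2 probes, was higher by 2.005 ± 0.13 (SE; adjusted p = 1.6e-09), and by 4.15 with the scanner's processed signals and with the authors' series table. Its mean log2 red signal was low in E-Wnt (6.64, beside 8.48 in M-Wnt), so the size is uncertain. The part of the low signal was not tested. BC051226 was lower by -0.83 (adjusted p = 0.00071).

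Other named genes that passed covered several roles. Rnf125, a ubiquitin ligase that restrains antiviral signalling, was higher by 1.06 (limma adjusted p = 0.0037), and its probe was well above background on 1 of 3 E-Wnt arrays. Pdlim5, a PDZ and LIM protein of the actin cytoskeleton, was higher by 0.86 (adjusted p = 0.0037). The protein-coding gene 2810021J22Rik was higher by 0.47 (adjusted p = 0.0022). Pate14, of a family of secreted proteins of the male reproductive tract, was lower by -1.17 (adjusted p = 1.3e-05). Gm904 was not well above background on any M-Wnt array and was at least 1.3-fold lower there on the red-channel scale, with a fitted log2 difference of -0.78 (adjusted p = 0.00078) that was -2.78 with the scanner's processed signals. Gm904 passed the filter through E-Wnt only, so its direction was favoured by that choice and carries no weight. Vmn1r74, a vomeronasal receptor, was lower by -0.36 (adjusted p = 0.022), a call lost in 7 of 20 alternatives, among them those without M-Wnt replicate 1, M-Wnt replicate 2 or E-Wnt replicate 1. Wfdc18, a secreted whey acidic protein relative (0.43), and Defa24, a defensin (0.43), were higher and are named only to complete the 16, after their values were seen.

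Prc1, the cross-linker of microtubules at the midzone of dividing cells, was the only measured gene of the cell division list. It was at 2.06, 1.69 and -1.16 in E-Wnt and at 1.93, 1.71 and 1.67 in M-Wnt. E-Wnt replicate 3 alone was low, the groups overlapped, and the log2 difference of 0.91 did not pass (limma adjusted p = 0.21). Without E-Wnt replicate 3 it was -0.10. None of 21 listed mesenchymal transition genes and none of 17 listed Wnt pathway genes had a probe that could be named.

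Some unnamed features showed far larger differences. Unnamed probes whose identifiers hold an accession were not ranked, so larger differences among them are not shown. Of the other unnamed features well above background on all 6 arrays, A_51_P337412 was highest in M-Wnt, by 9.22 on the log2 scale. A_51_P324814 was lowest, by -9.32. A_51_P337412 was at -7.38, -7.37 and -6.70 in E-Wnt and at 2.16, 1.97 and 2.10 in M-Wnt. A_51_P324814 was at 4.69, 4.59 and 3.77 in E-Wnt and at -5.09, -5.05 and -4.77 in M-Wnt. Next in size were A_51_P515882 (8.81), A_51_P436646 (8.47) and A_51_P392687 (8.39) among the higher, and A_51_P242399 (-8.20), A_51_P317941 (-7.60) and A_52_P410685 (-7.33) among the lower. Each of these 8 probes passed the limma test under all 21 alternatives.

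Signals measured in 1 line only were also found. Of the features tested, 1284 were well above background on all E-Wnt arrays and on no M-Wnt array, and 568 the reverse. In the first set 894 passed as lower in M-Wnt and 4 as higher, and in the second 558 passed as higher. The filter required a signal in E-Wnt or M-Wnt, so the direction of these counts was set by the choice and carries no weight. The red signal of the arrays moved with it: without the dim M-Wnt replicate 3 1361 and 917 probes were counted in place of 1284 and 569, a setting chosen after seeing the data, and the part of signal strength in these counts was not tested further. Among the unnamed probes ranked, the largest by the red-channel bound were A_51_P339793 and A_52_P257625, higher in M-Wnt, and A_51_P477121 and A_52_P520607, lower. Their fitted ratios differed by 71.75-fold, 282-fold, 103-fold and 62.5-fold in that order (limma adjusted p = 4.4e-11 or smaller). The corresponding red-channel bounds were 3027-fold, 307-fold, 131-fold and 86.6-fold, on that scale only. They rest on the probe's own signal in the dim line, or close to it, and are differences of means rather than lower limits. For A_51_P339793 the scales gave very different sizes, a log2 difference of 6.16 for the ratio and 11.7 for the red channel alone.

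Calls were unevenly spread over the kinds of probe. Features of the catalogue classes A_51 and A_52 passed in 50.5% of 18101 and 47.4% of 13587 cases, beside 45.9% of all features. Noncoding-RNA probes (Mm_ncRNA) with an AK accession passed in 38.3% of 4445, those with another accession in 32.5% of 754, and those with a number only in 36.8% of 524. Probes marked VIRS passed in 18.1% of 2004, and only 2004 of 10960 on the array were measured. The files do not say what VIRS probes were designed against, and no test between classes was made. Where a transcript accession had 2 or more probes tested (1440 transcripts), 697 had at least 1 call. All probes of the transcript were called in the same direction for 478 of these, and calls opposed each other for 1.

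**Figure D3:**
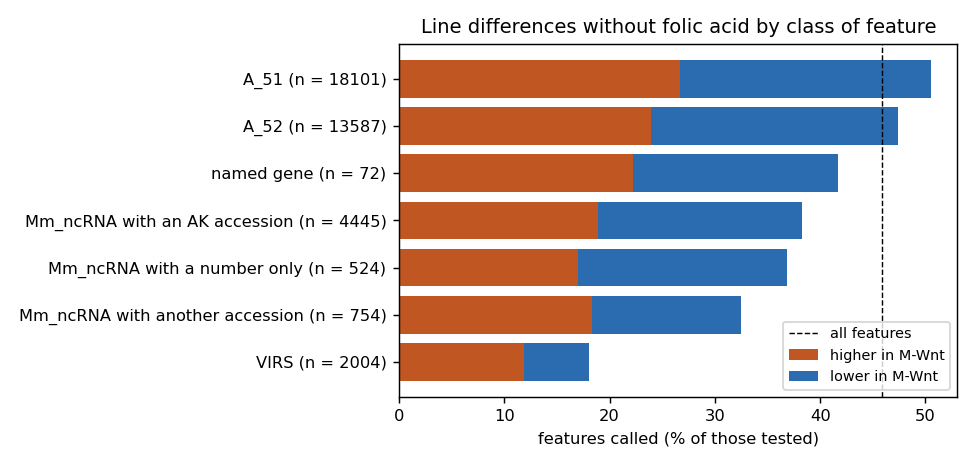
Share of features called between M-Wnt and E-Wnt without folic acid in each class of feature, as percent of those tested, split into higher and lower in M-Wnt. The dashed line marks all features (45.9%). Class A_51 reached 50.5% and the VIRS probes 18.1%.

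Whether the line difference depended on the medium was asked by setting it beside the same difference in control medium, on the same features. There 18116 features (45.8%) passed, with 3686 at least 2-fold higher (9.31%) and 3546 at least 2-fold lower (8.96%) in M-Wnt. Of the 18116, 12879 also passed without folic acid with the same sign, which is 70.9% of the calls without folic acid and 71.1% of those in control medium. Another 254 passed in both media with opposite signs. Across features the 2 differences correlated with r = 0.885. This is a description over 39578 features that are not independent, and the samples are separate but share the reference RNA. The difference between the differences, tested as an interaction, passed for 2647 features (6.69%), 1578 positive (3.99%) and 1069 negative (2.7%). Without M-Wnt control replicate 2 it passed for 1508, without M-Wnt control replicate 3 for 1534, without M-Wnt withdrawal replicate 2 for 1573 and without E-Wnt withdrawal replicate 3 for 4921. With slide as a fixed block it passed for 210.

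M-Wnt values moved further between media than E-Wnt values in most of these features. In 2427 of the 2647 features (91.7%) the M-Wnt mean moved further between media than the E-Wnt mean, beside 27595 of all 39578 (69.7%). Mean red signal of M-Wnt was 4213 to 5170 in control medium (slides 2 and 3) and 1964 to 3722 without folic acid (slide 3). That of E-Wnt was 4701 to 6649 (slide 1) and 4129 to 5604 (slides 1 and 2). The part of signal strength and slide in these shares was not tested. Of the calls present only without folic acid, 548 of 5021 passed the interaction, and 833 of the 4983 present only in control medium. The remainder of either set changed their side of the threshold without a called change.

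**Figure D4:**
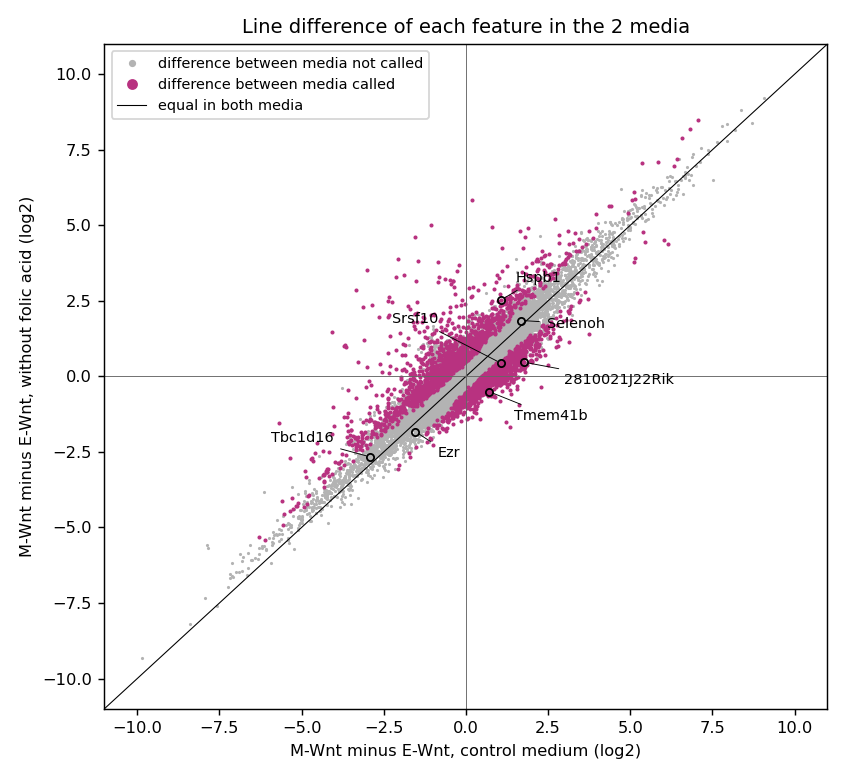
M-Wnt minus E-Wnt on the log2 scale for each of 39578 features, in control medium (horizontal) and without folic acid (vertical). Coloured points are the 2647 features whose difference changed between media by the interaction test. Tbc1d16 and Ezr lie near the diagonal, Hspb1 above it, and Tmem41b and 2810021J22Rik below it.

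Among the 72 named genes, 32 passed in control medium, beside 45.8% of all features. In both media 21 passed with the same sign, beside 12879 of 39578 features. With opposite signs 1 passed in both, Tmem41b, beside 254 of 39578 features. The interaction passed for 4 of 72, beside 6.69% of all features: Hspb1, 2810021J22Rik, Tmem41b and Srsf10. Tbc1d16 (-2.92 in control medium, -2.66 without folic acid), Ezr (-1.53 and -1.83), BC065403 (2.26 and 2.005), U90926 (2.33 and 2.72) and Selenoh (1.68 and 1.85) were called in both media, with no called change between them.

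Hspb1 was higher in M-Wnt in both media, by 1.07 in control medium and by 2.53 without folic acid. In control medium its log2 ratio was -4.19, -4.04 and -3.98 in E-Wnt and -2.81, -3.06 and -3.13 in M-Wnt. The E-Wnt arrays of the media overlapped, whereas every M-Wnt array was higher without folic acid than in control medium. The interaction of Hspb1 was 1.46 ± 0.25 (SE; limma adjusted p = 0.0025), and it lost the call with median centring and with slide as a fixed block. In metM-Wnt the means of Hspb1 were -2.15 in control medium and -2.01 without folic acid.

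Tmem41b turned from higher to lower. In control medium it was at 1.12, 0.60 and 1.27 in E-Wnt and at 1.499, 1.69 and 1.90 in M-Wnt, a log2 difference of 0.70. Without folic acid the difference was -0.50, and all M-Wnt arrays were below those in control medium. The interaction of Tmem41b was -1.20 ± 0.24 (SE; limma adjusted p = 0.0060) and was lost with slide as a fixed block.

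For 2810021J22Rik the line difference narrowed from 1.78 to 0.47, the M-Wnt arrays being at 2.11, 2.17 and 1.96 in control medium and at 0.88, 1.03 and 0.83 without folic acid. The E-Wnt arrays lay between 0.23 and 0.52 in both media. The interaction of 2810021J22Rik was -1.32 ± 0.15 (SE; limma adjusted p = 0.00013) and passed in all 27 alternatives. That of Srsf10 was -0.62 ± 0.17 (SE; adjusted p = 0.045), from 1.06 to 0.44, and was lost in 12 of 27.

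**Figure D5:**
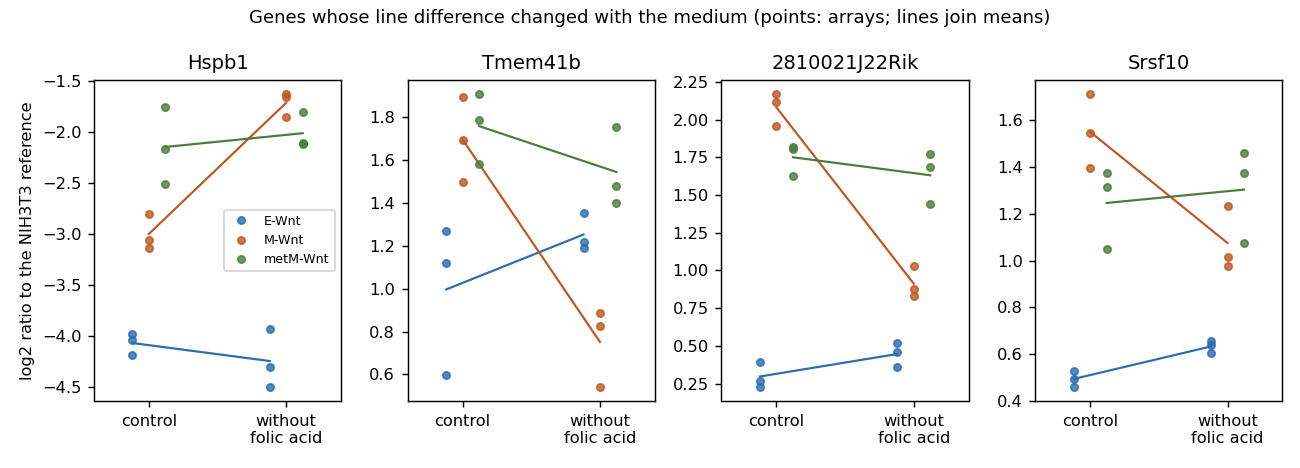
Log2 ratio to the NIH3T3 reference in control medium and without folic acid for the 4 named genes that passed the interaction test. Points are arrays, 3 per line and medium, and lines join the means of E-Wnt, M-Wnt and metM-Wnt. Without folic acid the M-Wnt mean of Hspb1 lay above that in control medium and those of Tmem41b, 2810021J22Rik and Srsf10 below it, while the E-Wnt means moved less.

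Differences called in 1 medium only need the interaction to be read as differences between media. The named genes called only without folic acid were Ass1, Rpl39l, Wfdc18, Defa24, Vmn1r74, Pdcd10, Ramac and Chmp3, and none of the 8 passed the interaction. Of all 5021 features called only without folic acid, 548 passed it. Ass1 differed by 0.72 without folic acid and by 0.08 in control medium (interaction 0.63, limma adjusted p = 0.29). Gcsh differed by 0.31 and 0.95 (interaction -0.64, adjusted p = 0.26), Acaca by 0.04 and 0.76 (-0.71, adjusted p = 0.22) and Ppid by -0.01 and -0.60 (0.59, adjusted p = 0.12). A p above the threshold does not show that the media gave the same difference.

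Unnamed features showed larger changes between media. A_51_P387123 was lower in M-Wnt by -3.01 in control medium and higher by 3.52 without folic acid (interaction 6.52, limma adjusted p = 0.00011). Its M-Wnt arrays were at -1.64, -1.87 and -1.98 in control medium and at 3.07, 3.07 and 3.11 without folic acid. A_51_P165244 moved from -1.56 to 4.62 and A_52_P653054 from -3.33 to 2.85. E-Wnt replicate 3 was low for A_51_P165244 (-3.60, beside a mean of -0.49 over replicates 1 and 2), A_51_P387123 (-2.18, beside 0.44) and A_52_P653054 (-2.02, beside 0.79). Without that array the interactions of A_51_P165244, A_51_P387123 and A_52_P653054 were 5.14, 5.65 and 5.25 and still passed. With slide as a fixed block those of A_51_P165244 (adjusted p = 0.086) and A_52_P653054 (adjusted p = 0.06) did not pass. In the other direction A_51_P184680 moved from 1.35 to -1.68 (interaction -3.03), A_51_P184672 from 1.61 to -0.93 (-2.54) and A_52_P531325 from 2.29 to -0.34 (-2.63). The last did not differ between lines without folic acid, and it was at 0.54 (adjusted p = 0.00066) without E-Wnt replicate 3. Its interaction lost the call with slide as a fixed block, in a fit of only the arrays compared and without M-Wnt control replicate 2.

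In the withdrawal medium the mean of metM-Wnt lay nearer to M-Wnt than to E-Wnt for 15194 of the 18154 features called (83.7%) and for 6229 of the 6717 at least 2-fold different (92.7%). The share among the 30 named genes called was 23 (76.7%). The 7 genes nearer to E-Wnt were Ass1, Chmp3, Pdcd10, Ramac, Rpl39l, Tmem41b and Vmn1r74. Of these 7, 6 were called without folic acid only and Tmem41b with opposite signs in the media. The features were selected on M-Wnt and E-Wnt values, so this is a description with no test.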

How the data were processed

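Signals of 2-colour Agilent arrays were read from the deposited scanner files, whose spot intensities (mean, background median and processed signals) come from Agilent Feature Extraction (version 10.7.3.1 in the submitters' processing notes). The deposited scanner files also hold log10 ratios of red over green, and the authors' series table holds the same log10 ratios to within 0.005. The processed signals and that table were used as alternatives. Red was the sample and green the NIH3T3 reference, per the labels. The labels give 2.2 µM folic acid in control medium, and the design text gives 2.2 mM.

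Background was corrected with normexp (offset 50) and dyes with loess. Control spots and outlier marks had weight 0, and duplicate spots were averaged per probe. One linear model in limma 3.58.1 (R 4.3.3) fitted 6 group means to 18 arrays, with no slide or replicate block. Tests were 2-sided, with an adjusted p of 0.05 as threshold. Features entered when well above background in red on all 3 arrays of either group. No used spot was saturated. The number of arrays, 3 per group, limits the precision. The fit was checked on simulated data with independent noise, the same spread in every group and no slide effect. That check therefore says nothing about unequal spread, an outlying array or slide in these data. Named genes were the 14 largest each way among called genes whose groups did not overlap and whose tested probes all had the same sign. All measured members of the lists and the largest probes and interactions were added. For genes chosen by size, groups without overlap and probes of the same sign follow from the choice and are no support. Unnamed probes whose identifiers hold an accession were left out when probes were ranked. The members and lists were chosen with earlier results of these data known. Alternatives changed the background correction, scaling, filter, fit, weights, blocks, probe rule and the arrays left out.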

Additional observations from a re-analysis of the deposited data

Results flagged for a closer look

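The difference between M-Wnt and E-Wnt changed with the medium for 4 named genes, by the interaction test in limma, which compares the line difference without folic acid with that in control medium. Hspb1 had an interaction of 1.46 on the log2 scale (higher in M-Wnt on 3 of 3 arrays in both media, and more so without folic acid). The interaction of 2810021J22Rik was -1.32, with a smaller excess in M-Wnt without folic acid. Tmem41b changed by -1.20, from higher in M-Wnt on 3 of 3 arrays to lower on 3 of 3. Srsf10 changed by -0.62, an interaction that 12 of 27 alternatives lost. With slide as a fixed block the interactions of Hspb1, Tmem41b and Srsf10 lost the call, and that of Hspb1 also lost it with median centring. Only that of 2810021J22Rik passed in all 27 alternatives. Slide was not balanced over the groups, and its part in these values was tested only through the block fits.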

How the results depend on the processing

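Counts of calls between M-Wnt and E-Wnt without folic acid stayed within 1.5 times the reported 18154 (15659 to 20240 with each array left out in turn), except 8370 with slide as a fixed block, where 12 named genes passed in place of 30. In a fit of only the arrays compared 14553 features passed, and with array weights 22390. For named genes the counts with an array left out were 24 to 33. With only the arrays compared 25 named genes passed, and Ass1, Defa24, Rpl39l, Sec22b, Vmn1r74 and Wfdc18 lost the call. For the interaction, 1118 passed with median centring, 8213 with array weights, 210 with slide as a fixed block and 5878 with slide as a random block (correlation -0.145). Counts with 1 array left out lay between 1508 and 4921. In control medium 12049 passed with median centring and 10236 with slide as a fixed block. Median centring turned Sec22b to -0.21 (limma adjusted p = 0.65), Mrpl51 to -0.23 (adjusted p = 0.55) and Srsf10 to -0.27 (adjusted p = 0.40), and without E-Wnt withdrawal replicate 3 A_52_P531325 turned to 0.54 (-0.83 to 0.54 over the arrays left out). The cause was not tested. U90926, Hspb1, BC065403, Tbc1d16, Ezr, Pate14, Gm904, Rpl18 and Txndc9 kept direction and call in every alternative in which they were tested. Replicate numbers did not pair the samples: same-numbered deviations correlated at -0.131, -0.116 and -0.06, and 0 samples correlated best with their own number. With the replicate block 17124 features and 29 named genes passed without folic acid, and 1876 passed the interaction. Array number and dim signal limit small differences.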
